A study of Mus musculus with 8 samples.

Results

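The 10 genes described here encode the enzymes that write, copy and remove methyl groups on cytosine in mouse DNA, namely Uhrf1, Uhrf2, Dnmt1, Dnmt3a, Dnmt3b, Dnmt3l, Tet1, Tet2, Tet3 and Tdg. They were taken by gene symbol from a table of 38924 genes, and all 10 were found, each on 1 line. Transcript levels came from RNA sequencing of 3 libraries of diapaused inner cell mass (ICM), 2 of post-implantation epiblast and 3 of ICM. All embryos were C57BL/6, and the labels enter the sex as female. Diapaused ICM came from blastocysts whose mothers received tamoxifen and Depo Provera (0.5 mg) at day 3.5, with collection after 5 more days. Epiblast was dissected at day 6.5 and ICM was taken from untreated blastocysts at day 3.5. Immunosurgery was used to remove the trophectoderm of the blastocysts. Every library is a pool of lysates of about 50 embryos whose RNA was amplified before library preparation. The diapaused group differs from the ICM group in hormone treatment, age and arrest together, so these cannot be told apart. The labels call the libraries biological replicates without saying how the pools were formed, so the p-values measure the spread between these pools.

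CpG methylation is copied after replication by DNMT1, which UHRF1 brings to hemimethylated sites. DNMT3A and DNMT3B place new methylation, and DNMT3L, which has no catalytic activity of its own, assists them. TET enzymes oxidise 5-methylcytosine, and TDG excises the more oxidised bases so that repair can restore an unmodified cytosine. The blastocyst is known for low global methylation, and the epiblast for its return after implantation.

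Levels are given in adjusted TPM, a transcript abundance per length that the authors adjusted in a way not given in the sources used. The sums of the 8 libraries ran between 720674 and 1179026, and read depth is unknown. Fold changes are differences of log2(value + 1) with their SE, tested with limma over 17698 genes and called at a Benjamini-Hochberg adjusted p under 0.05. This scale understates changes of genes with low values. Of the 10 members, 8 were at 1 or more in every library, Tet2 in 6 libraries and Tet3 in 4. Markers of post-implantation epiblast summed to between 1.27 and 3.14 adjusted TPM in diapaused ICM, 161 and 291 in epiblast, and 0.784 and 5.89 in ICM. The 10 listed pluripotency markers summed to 527 to 639 in diapaused ICM, 256 to 324 in epiblast and 621 to 935 in ICM. In epiblast against ICM 0 rose and 9 fell, beside 16.7% and 13.3% of all tested genes. In diapaused ICM against ICM 0 rose and 1 fell, beside 7.52% and 5.81%. In diapaused ICM against epiblast 7 rose and 0 fell, beside 16.0% and 18.6%. Pou5f1 and Nanog, which mark pluripotent cells, were at 66.2 or more in every library, whereas Sox2, another such marker, stayed between 0.989 and 4.68. Visceral endoderm markers summed to between 562 and 578 in diapaused ICM, 305 and 417 in epiblast, and 25.6 and 36.3 in ICM, mostly from Rhox5, which stood at 555, 568 and 552 in diapaused ICM, 284 and 353 in epiblast, and 29.6, 21.1 and 28.1 in ICM. Of the other markers in that list, Ttr stood at 6.33 and 39.7 in epiblast and at 0.196 or less elsewhere. The part of these cells in the members' levels was not tested. In bulk tissue, fewer cells of a type and less RNA per cell cannot be told apart.

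Promoters differ widely in CpG content among members that changed. The 250 bases before the RefSeq start are shown for 4 of them, namely the UHRF genes, which changed in opposite directions, Tet2, which has the most CpGs of any member promoter, and Dnmt3l, which has few, on build GRCm38.p6, read 5′ to 3′ on the gene's strand with every CpG in capitals. The authors' processing notes name build mm9, and these coordinates belong only to GRCm38.p6. Shown are Uhrf1 (the downstream of 2 annotated starts, chr17:56304063-56304312, plus strand), Uhrf2 (chr19:30030263-30030512, plus strand), Dnmt3l (the most upstream of 3 starts, chr10:78042037-78042286, plus strand) and Tet2 (chr3:133544391-133544640, minus strand).
Uhrf1: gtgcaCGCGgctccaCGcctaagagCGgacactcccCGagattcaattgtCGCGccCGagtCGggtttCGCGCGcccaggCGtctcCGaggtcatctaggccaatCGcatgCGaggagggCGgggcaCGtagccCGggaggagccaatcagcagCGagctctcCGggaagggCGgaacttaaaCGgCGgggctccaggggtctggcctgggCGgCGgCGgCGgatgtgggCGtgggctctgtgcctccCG
Uhrf2: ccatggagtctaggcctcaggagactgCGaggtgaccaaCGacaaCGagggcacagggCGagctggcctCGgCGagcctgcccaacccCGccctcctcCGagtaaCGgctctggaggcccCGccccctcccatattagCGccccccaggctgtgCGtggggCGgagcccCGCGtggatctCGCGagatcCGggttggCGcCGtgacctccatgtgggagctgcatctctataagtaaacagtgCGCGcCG
Dnmt3l: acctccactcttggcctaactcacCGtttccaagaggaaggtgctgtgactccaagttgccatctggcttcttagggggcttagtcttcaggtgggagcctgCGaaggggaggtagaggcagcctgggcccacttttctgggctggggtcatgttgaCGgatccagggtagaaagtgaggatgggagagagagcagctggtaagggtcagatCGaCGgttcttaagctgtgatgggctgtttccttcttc
Tet2: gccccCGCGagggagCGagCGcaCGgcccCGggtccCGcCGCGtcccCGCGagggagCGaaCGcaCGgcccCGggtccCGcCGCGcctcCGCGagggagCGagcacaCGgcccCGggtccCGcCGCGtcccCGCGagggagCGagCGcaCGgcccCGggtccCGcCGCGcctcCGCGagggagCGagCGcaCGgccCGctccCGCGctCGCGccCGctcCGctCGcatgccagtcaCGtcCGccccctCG
Tet2 held 51 CpGs, more than 99.9% of 32851 promoters of the same length, against a median of 6 over all of them. Uhrf1 held 30 at this start and 10 at its other start, and Uhrf2 held 23. Dnmt3l held 5 CpGs at the start shown and 4 and 3 at its other starts. Which start was used in these libraries was not tested. The fewest in any member promoter were 2, at 1 of the 3 starts of Dnmt1, whose other starts held 26 and 7. All 10 members were matched, with 17 promoters between them, and 13 of the 17 lay above the median of all promoters. The 4 forms of the E2F motif, namely TTCGCGC or TTGGCGC as well as TTCCCGC or TTGCCGC, were searched on both strands, where matches may overlap. They occurred in 4 of the 17 member promoters (Dnmt1, both starts of Uhrf1, and Uhrf2) and in 7.89% of all promoters. A match of letters describes the sequence and does not show a bound site.

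**Figure D1:**
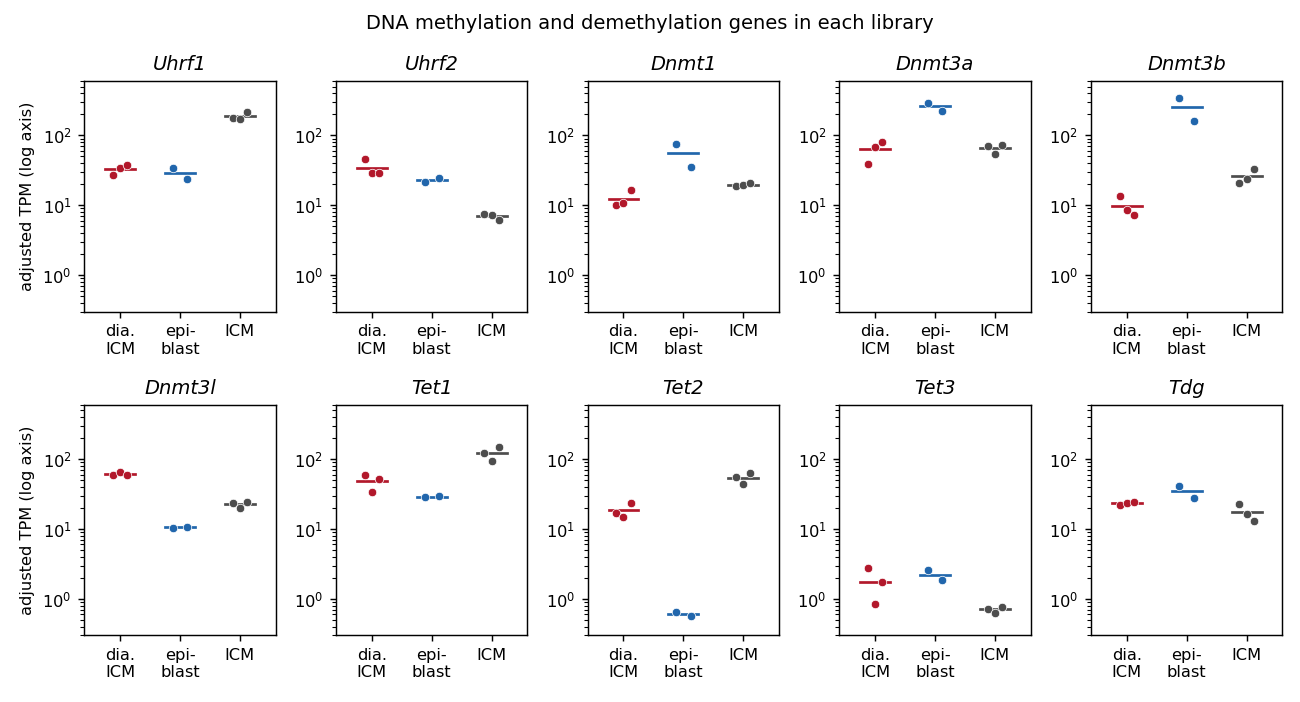
Adjusted TPM (log axis) of the 10 genes, with a point for each library and a bar at the group mean, for diapaused ICM (dia. ICM), epiblast and ICM. Uhrf1 lies between 23.8 and 38.0 in the diapaused and epiblast libraries and between 170 and 216 in ICM, and Tet2 lies under 1 in both epiblast libraries.

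The 2 UHRF genes changed in opposite directions outside the day 3.5 ICM. Uhrf1, the adaptor of maintenance methylation, stood at 27.0, 34.1 and 38.0 adjusted TPM in diapaused ICM, 34.5 and 23.8 in epiblast, and 175, 170 and 216 in ICM. Every diapaused and epiblast library lay under every ICM library. Its mean was 5.66-fold lower in diapaused ICM than in ICM (log2 fold change -2.47 ± 0.24, adjusted p = 0.000371) and 6.41-fold lower in epiblast than in ICM (-2.66 ± 0.27, adjusted p = 0.00021).

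Uhrf2, a paralog that binds hydroxymethylated DNA and is known not to replace UHRF1 in maintenance, stood at 45.4, 28.7 and 28.8 adjusted TPM in diapaused ICM, 21.9 and 24.6 in epiblast, and 7.46, 7.26 and 6.18 in ICM. All ICM libraries were under all others. Its mean was 4.92-fold higher in diapaused ICM than in ICM (2.12 ± 0.24, adjusted p = 0.000749) and 3.34-fold higher in epiblast than in ICM (1.61 ± 0.26, adjusted p = 0.00268). Between diapaused ICM and epiblast neither UHRF gene passed the test. The difference was 0.18 for Uhrf1 (95% interval -0.42 to 0.79, overlapping groups) and 0.51 for Uhrf2 (-0.09 to 1.11).

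Dnmt1, the maintenance methyltransferase, stood at 9.98, 10.7 and 16.7 adjusted TPM in diapaused ICM, 76.4 and 35.3 in epiblast, and 18.7, 19.2 and 20.6 in ICM. Epiblast was above the other groups, and its 2 libraries were far apart. Dnmt1 rose in epiblast against ICM (1.37 ± 0.35, adjusted p = 0.0188) and was lower in diapaused ICM than in epiblast (-2.01 ± 0.35, adjusted p = 0.00301). The diapaused libraries lay below the ICM libraries without overlap, but the difference of -0.64 ± 0.31 did not pass (adjusted p = 0.227, 95% interval -1.35 to 0.07). Without epiblast replicate 1 the rise against ICM did not pass either (0.83, adjusted p = 0.17), nor without ICM replicate 1 (adjusted p = 0.050) or after rescaling to a common total (adjusted p = 0.070).

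Within libraries, the ratio of Uhrf2 to Uhrf1 was 1.69, 0.842 and 0.757 in diapaused ICM, 0.633 and 1.04 in epiblast, and 0.0426, 0.0427 and 0.0287 in ICM. Uhrf1 therefore far exceeded Uhrf2 in every ICM library, while the ratio stayed between 0.633 and 1.69 in all others. The ratio of Uhrf1 to Dnmt1 was 2.70, 3.19 and 2.28 in diapaused ICM, 0.452 and 0.673 in epiblast, and 9.37, 8.84 and 10.5 in ICM. All 3 groups were apart in this ratio, with diapaused ICM between ICM and epiblast. In an exact permutation test, two-sided, over 21 ratio comparisons, both ratios reached the smallest p these group sizes allow, 0.10, in every comparison except Uhrf2 to Uhrf1 between diapaused ICM and epiblast (p = 0.70). The smallest adjusted p was 0.124, so no ratio can pass 0.05 here.

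**Figure D2:**
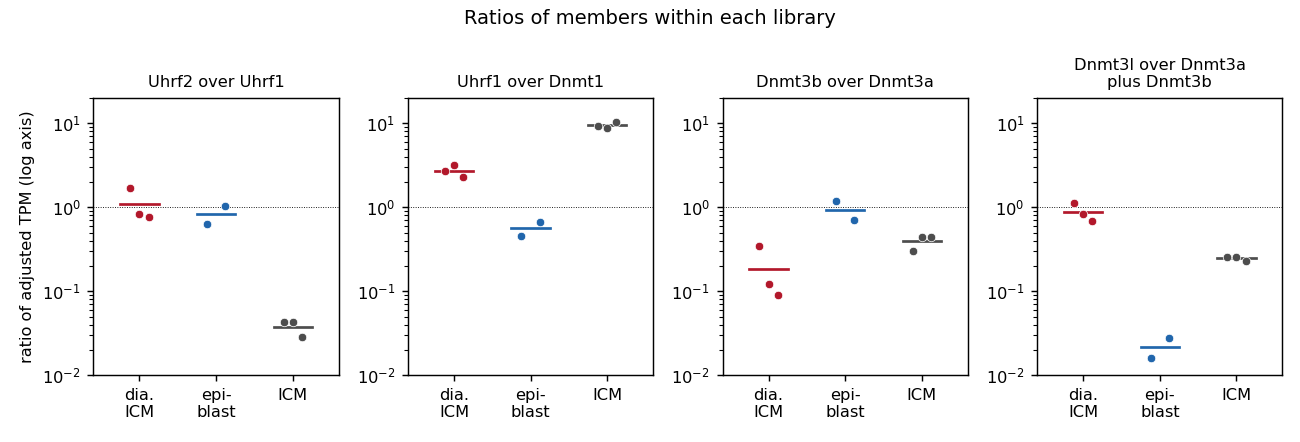
Ratios of adjusted TPM within each library on a log axis, with a point per library, a bar at the group mean and a dotted line at 1. The ratio of Uhrf2 to Uhrf1 lies between 0.0287 and 0.0427 in ICM, and the ratio of Dnmt3l to Dnmt3a plus Dnmt3b lies between 0.684 and 1.12 in diapaused ICM.

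Genes of G2 and mitosis were often lower in diapaused ICM. Of 16 in that list, 10 fell in diapaused ICM against ICM (median log2 difference -1.22), where 5.81% of all tested genes were called lower. Without ICM replicate 1 the count was 5, and without ICM replicate 3 it was 6. Of 19 genes of S phase, 6 fell in that comparison (median -0.70), and 3 without ICM replicate 3. In epiblast against ICM, 3 of the 16 rose and 0 fell (median 0.32). Of the 19, 4 rose and 2 fell (median -0.30), while the median of all genes was 0.14. The counts that rose were near the 16.7% of all genes, and 13.3% of all genes fell. Fewer rose when 1 epiblast library was left out. In diapaused ICM against epiblast 0 of either list rose, and 12 of the 16 and 7 of the 19 fell, beside 18.6% of all genes. The summed level of the S phase genes per library was 248 to 310 in diapaused ICM, 561 to 567 in epiblast and 458 to 525 in ICM. The part of the cell cycle in the differences of Uhrf1 and Dnmt1 was not tested.

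The de novo genes were highest in epiblast, and their non-catalytic partner was lowest there. Dnmt3a stood at 39.3, 69.0 and 80.7 adjusted TPM in diapaused ICM, 295 and 225 in epiblast, and 70.3, 54.2 and 74.1 in ICM. Diapaused ICM and ICM overlapped, and epiblast was above both. Epiblast was 1.96 ± 0.33 higher than ICM on the log2 scale (adjusted p = 0.00327), and diapaused ICM was 2.08 below epiblast (-2.08 ± 0.33, adjusted p = 0.00207). Against ICM the diapaused difference was -0.12 ± 0.30 (95% interval -0.80 to 0.56).

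Dnmt3b, the methyltransferase best known from the early post-implantation embryo, stood at 13.5, 8.54 and 7.38 adjusted TPM in diapaused ICM, 347 and 158 in epiblast, and 20.96, 24.1 and 32.9 in ICM. The 3 groups did not overlap, with diapaused ICM lowest. Its mean was 25.8-fold lower in diapaused ICM than in epiblast (-4.49 ± 0.39, adjusted p = 0.000109) and 2.65-fold lower than in ICM (-1.34 ± 0.35, adjusted p = 0.0353). The comparison with ICM depended on single libraries. It did not pass when any of the ICM libraries was left out (adjusted p = 0.065 without replicate 1, 0.065 without replicate 2 and 0.11 without replicate 3). The same held for diapaused replicates 2 (adjusted p = 0.096) and 3 (adjusted p = 0.10).

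Dnmt3b shares sequence with Dnmt3c, a rodent paralog known from the male germline. Of the 31-base words in Dnmt3b transcripts, 13.5% occur in Dnmt3c transcripts, so reads may have been divided between them. The deposited level of Dnmt3c was 2.07, 1.46 and 1.65 adjusted TPM in diapaused ICM, 39.8 and 27.7 in epiblast, and 3.66, 3.93 and 4.05 in ICM. With the paralog added, no call for Dnmt3b changed.

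Dnmt3l ran the other way. It stood at 59.3, 65.1 and 60.2 adjusted TPM in diapaused ICM, 10.4 and 10.7 in epiblast, and 23.7, 19.8 and 24.2 in ICM. No groups overlapped and the replicates of each group lay close together. Diapaused ICM was 2.72-fold above ICM (1.41 ± 0.19, adjusted p = 0.00191) and 5.83-fold above epiblast (2.44 ± 0.21, adjusted p = 0.000114), and epiblast was below ICM (-1.03 ± 0.21, adjusted p = 0.00802). The difference between epiblast and ICM did not pass without epiblast replicate 1 (adjusted p = 0.072) or epiblast replicate 2 (adjusted p = 0.053).

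Summed primitive endoderm markers followed the same order of groups as Dnmt3l, whereas the visceral endoderm sums given above did not, being lowest in ICM. The 12 listed markers summed to 492 to 664 adjusted TPM in diapaused ICM, 39.9 to 47.2 in epiblast and 173 to 247 in ICM. Of the 12, 8 rose and 1 (Gata6) fell in diapaused ICM against ICM, beside 7.52% and 5.81% of all tested genes. In epiblast against ICM 8 fell, beside 13.3%. Without ICM replicate 1, 6 rose and 0 fell in diapaused ICM against ICM, and 0 fell there without ICM replicate 3 or any 1 diapaused ICM library. Of 6 visceral endoderm markers tested, 2 rose and 1 fell in diapaused ICM against ICM (1 rose without ICM replicate 1), and 4 rose and 1 fell in epiblast against ICM, where 2 rose without epiblast replicate 1 or replicate 2. No marker was at 0 in diapaused ICM or ICM, though Sox17 and Foxa2 stayed at 3.47 or less in all libraries. The part of either marker list in the level of Dnmt3l was not tested.

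The ratio of Dnmt3l to Dnmt3a plus Dnmt3b was 1.12, 0.839 and 0.684 in diapaused ICM, 0.0161 and 0.0280 in epiblast, and 0.260, 0.253 and 0.227 in ICM. The 3 groups did not overlap, and each comparison gave the smallest possible exact permutation p, 0.10. The ratio of Dnmt3b to Dnmt3a was 0.344, 0.124 and 0.0915 in diapaused ICM, 1.18 and 0.704 in epiblast, and 0.298, 0.445 and 0.444 in ICM. Diapaused ICM overlapped ICM in this ratio (exact permutation p = 0.20).

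The TET genes that dominate the ICM were lower in both other groups, and Tet2 was under 1 adjusted TPM in epiblast. Tet1 stood at 60.0, 33.3 and 52.4 adjusted TPM in diapaused ICM, 28.5 and 29.4 in epiblast, and 121, 93.2 and 148 in ICM. The groups did not overlap, ICM being highest. Tet1 fell in diapaused ICM against ICM (-1.32 ± 0.28, adjusted p = 0.0156) and in epiblast against ICM (-2.0 ± 0.31, adjusted p = 0.00206). The first of these did not pass without ICM replicate 1 (adjusted p = 0.055) or ICM replicate 3 (adjusted p = 0.056). Diapaused ICM differed from epiblast by 0.68 ± 0.31 (adjusted p = 0.117, 95% interval -0.02 to 1.39), which passed only without diapaused ICM replicate 2 (adjusted p = 0.046).

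Tet2 stood at 17.2, 14.7 and 23.4 adjusted TPM in diapaused ICM, 0.647 and 0.573 in epiblast, and 55.2, 44.2 and 63.2 in ICM. The 3 groups were well apart. Its mean was 2.94-fold lower in diapaused ICM than in ICM (-1.52 ± 0.24, adjusted p = 0.00414) and 88.8-fold lower in epiblast than in ICM (-5.08 ± 0.27, adjusted p = 9.32e-06). Diapaused ICM was 30.2-fold above epiblast (3.57 ± 0.27, adjusted p = 5.45e-05). TET2 differs from TET1 and TET3 in lacking the CXXC DNA-binding domain within the same protein.

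Tet3, the TET enzyme of the oocyte and zygote, stayed low. It stood at 2.72, 0.832 and 1.74 adjusted TPM in diapaused ICM, 2.56 and 1.85 in epiblast, and 0.721, 0.623 and 0.776 in ICM. It entered the test only through the diapaused and epiblast libraries and passed in no comparison (adjusted p = 0.188, 0.0611 and 0.549 for diapaused ICM against ICM, epiblast against ICM and diapaused ICM against epiblast). The second of these passed without diapaused ICM replicate 1 (adjusted p = 0.043) or diapaused ICM replicate 2 (adjusted p = 0.033).

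**Figure D3:**
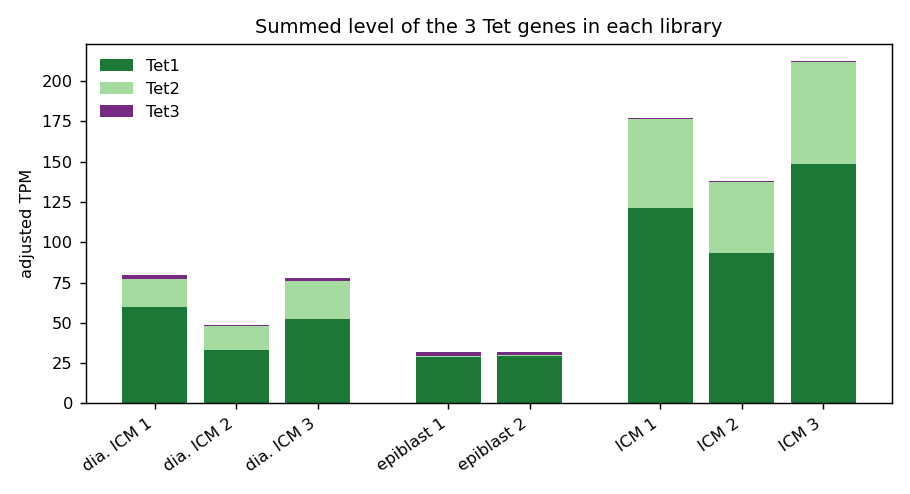
Stacked adjusted TPM of Tet1, Tet2 and Tet3 in each library of diapaused ICM, epiblast and ICM. The stacks reach 48.8 to 79.8 in diapaused ICM, 31.7 and 31.8 in epiblast, and 138 to 212 in ICM.

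The sum of the 3 TET genes was 79.8, 48.8 and 77.5 adjusted TPM in diapaused ICM, 31.7 and 31.8 in epiblast, and 177, 138 and 212 in ICM. Tet1 made up 75.1%, 68.2% and 67.5% of it in diapaused ICM, 89.9% and 92.4% in epiblast, and 68.5%, 67.5% and 69.9% in ICM. Tet1 and Tet2 therefore kept overlapping shares in diapaused ICM and ICM, and Tet2 nearly left the sum in epiblast, at 2.04% and 1.80%. These sums and shares set genes beside each other on the scale of TPM, which is per length, and whether the authors' adjustment kept that property is unknown.

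Tdg, the thymine DNA glycosylase that removes formylcytosine and carboxylcytosine, stood at 21.8, 23.3 and 24.6 adjusted TPM in diapaused ICM, 41.4 and 28.1 in epiblast, and 23.0, 16.2 and 12.9 in ICM. Diapaused ICM overlapped ICM, and epiblast was above both. It rose in epiblast against ICM (0.97 ± 0.29, adjusted p = 0.0344), but this did not pass without ICM replicate 2 (0.067), ICM replicate 3 (0.092), epiblast replicate 1 (0.24) or epiblast replicate 2 (0.056), all adjusted p, nor after rescaling to a common total (adjusted p = 0.16). The diapaused difference from ICM was 0.43 ± 0.26 (adjusted p = 0.33), and from epiblast -0.54 ± 0.29 (adjusted p = 0.177). The ratio of Tdg to the 3 TET genes was 0.273, 0.477 and 0.317 in diapaused ICM, 1.31 and 0.883 in epiblast, and 0.130, 0.118 and 0.0610 in ICM, without overlap between groups (exact permutation p = 0.10 in each comparison).

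Genes that share sequence with Tdg make its level uncertain. Tdg-ps, an annotated pseudogene, shares 37.1% of the 31-base words of Tdg and was listed at 16.6, 18.8 and 21.8 adjusted TPM in diapaused ICM, 30.1 and 23.6 in epiblast, and 11.3, 13.1 and 9.60 in ICM. Reads of such genes that fall in shared sequence cannot be told apart from reads of Tdg here. With Tdg-ps, Gm5597 and Gm9855 added, epiblast remained above ICM (1.02 ± 0.27, adjusted p = 0.0203). Uhrf1 shares 21.9% of its words with Gm5648 and 3.155% with Gm15953, and adding both changed no call. Dnmt3a, Dnmt3b, Dnmt3l, Tet2, Tet3 and Tdg overlap annotated genes on the opposite strand, and without the strand of the counting those reads cannot be told apart.

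**Figure D4:**
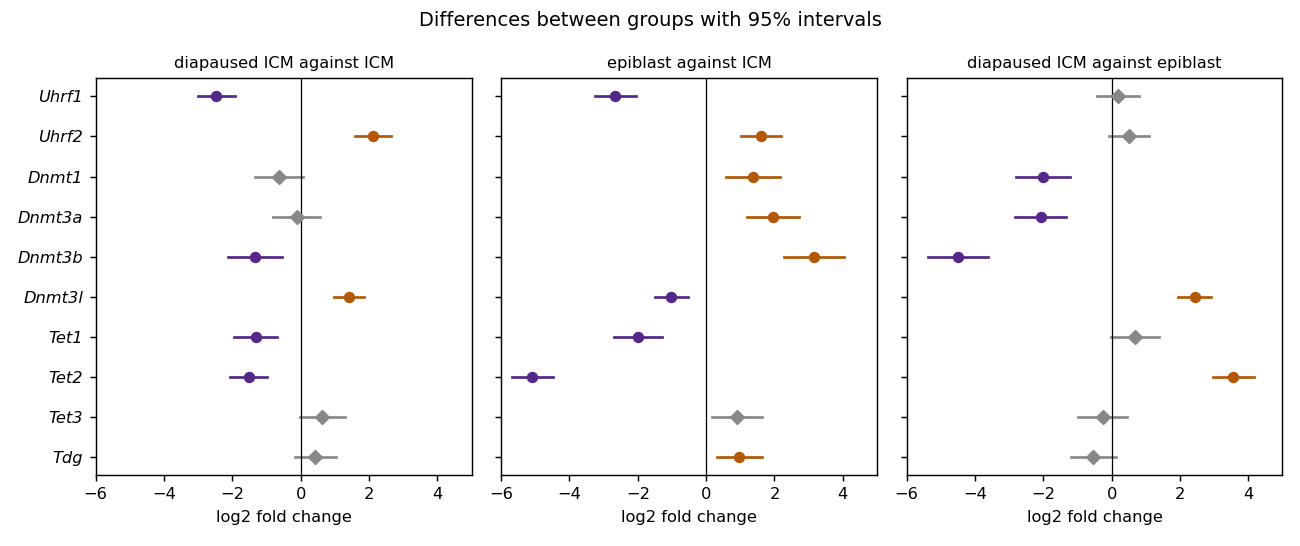
Log2 fold changes of the 10 genes with 95% intervals in diapaused ICM against ICM, epiblast against ICM and diapaused ICM against epiblast. Orange circles are called higher, purple circles called lower and grey diamonds not called. Uhrf1 is at -2.47 and -2.66 in the first and second panels and at 0.18 in the third.

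Counted over the members, diapaused ICM against ICM gave 2 higher (Uhrf2, Dnmt3l), 4 lower (Uhrf1, Dnmt3b, Tet1, Tet2) and 4 not called. In that comparison 7.52% of all tested genes were called higher, 5.81% lower and 13.3% in either direction. Epiblast against ICM gave 5 higher, 4 lower and 1 not called, beside 16.7% and 13.3% of all genes in those directions and 30.1% in either. Diapaused ICM against epiblast gave 2 higher, 3 lower and 5 not called, beside 16.0%, 18.6% and 34.5%. Groups did not overlap for 8, 10 and 8 members in these 3 comparisons, beside 30.7%, 59.0% and 61.4% of all genes. Without ICM replicate 1 or ICM replicate 3, 2 members were lower in diapaused ICM against ICM, and without epiblast replicate 1, epiblast against ICM gave 3 higher and 3 lower. Tested against a minimum fold of 1.5, the members gave 2 higher and 1 lower in diapaused ICM against ICM, 3 higher and 3 lower in epiblast against ICM, and 2 higher and 3 lower in diapaused ICM against epiblast. The comparisons share libraries and are not independent of each other.

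The median log2 difference of the members was -0.38 beside 0.00 over all genes in diapaused ICM against ICM, 0.94 beside 0.14 in epiblast against ICM, and -0.04 beside -0.11 in diapaused ICM against epiblast. Scaling moved the level of all genes. Rescaled without the most abundant genes, the median of all genes shifted by -0.14 in diapaused ICM against ICM and by -0.13 in epiblast against ICM, and rescaled to a common total it shifted by -0.21 in each. The split of called genes turned with it. For diapaused ICM against ICM it was 1331 higher and 1029 lower as deposited, 1042 and 1400 without the abundant genes, and 862 and 1480 at a common total. In epiblast against ICM it was 2963 and 2361 as deposited, 2023 and 2665 without the abundant genes, and 1537 and 2746 at a common total. The members' counts stayed at 2 higher and 4 lower in diapaused ICM against ICM under both. In epiblast against ICM they were 4 higher and 4 lower, and 3 higher and 4 lower.

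Among 12 partners of maintenance, 0 rose and 1 fell in diapaused ICM against ICM (median log2 difference 0.09), beside 7.52% and 5.81% of all genes, and 0 fell with any 1 library left out. For epiblast against ICM 3 rose and 0 fell (0.36), beside 16.7% and 13.3%. In diapaused ICM against epiblast 0 rose and 5 fell (-0.16), beside 16.0% and 18.6%, and 3 fell without either epiblast library. The 3 that rose in epiblast against ICM and the 5 that fell in diapaused ICM against epiblast were above those shares, but rest on few genes. Pcna, the replication clamp that binds DNMT1, averaged 299 ± 30.2 adjusted TPM in diapaused ICM, 783 ± 234 in epiblast and 293 ± 19.0 in ICM (SD, n = 3, 2 and 3). Cdca7, which recruits the remodeller HELLS to chromatin, averaged 11.7 ± 3.91 in diapaused ICM, 112 ± 16.0 in epiblast and 10.9 ± 4.84 in ICM, and its paralog Cdca7l 1.27 in diapaused ICM, 27.2 in epiblast and 0.915 in ICM. These 3 rose in epiblast against ICM (log2 fold changes 1.38 for Pcna, 3.32 for Cdca7 and 3.90 for Cdca7l). Hells itself averaged 28.9 ± 6.49 in diapaused ICM, 65.7 ± 0.533 in epiblast and 47.4 ± 8.73 in ICM, and was lower in diapaused ICM than in epiblast (-1.18, adjusted p = 0.0105), which did not pass without epiblast replicate 1 (0.068) or replicate 2 (0.063). Usp7, a deubiquitinase that stabilises DNMT1 and UHRF1, was the gene that fell in diapaused ICM against ICM (51.4 ± 4.35 adjusted TPM in diapaused ICM and 85.3 ± 1.13 in ICM, log2 fold change -0.72, adjusted p = 0.0407), and this did not pass when any 1 of the 8 libraries was left out.

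Among regulators of UHRF1 and of de novo methylation, Dppa3 showed by far the highest ICM level of those named. Of 17 such genes, 0 rose and 4 fell in diapaused ICM against ICM (median log2 difference -0.31), beside 7.52% and 5.81% of all genes. In the comparison of epiblast with ICM 2 rose and 8 fell (-0.63), beside 16.7% and 13.3%, and 5 fell without epiblast replicate 1 or replicate 2. In diapaused ICM against epiblast 8 rose and 4 fell (0.65), beside 16.0% and 18.6%. There 4 rose without epiblast replicate 1 or replicate 2 and 5 without diapaused ICM replicate 3, and 2 fell without epiblast replicate 1 or diapaused ICM replicate 2. Dppa3 encodes the protein Stella, which displaces UHRF1 from chromatin. It stood at 45.9, 59.6 and 44.2 adjusted TPM in diapaused ICM, 3.68 and 2.31 in epiblast, and 1051, 1361 and 987 in ICM. The groups were far apart, at -4.48 ± 0.24 for diapaused ICM against ICM (adjusted p = 2.44e-05) and -8.16 ± 0.27 for epiblast against ICM (adjusted p = 2.48e-06). Zfp57, which protects imprinted methylation together with TRIM28, averaged 72.6 ± 25.6 in diapaused ICM, 3.0 ± 0.294 in epiblast and 50.3 ± 3.19 in ICM. Its fall in epiblast was called against ICM (-3.68, adjusted p = 6.19e-05), while diapaused ICM and ICM overlapped. Qser1, which guards DNA against de novo methylation, averaged 18.3 ± 1.71 in epiblast and 2.92 ± 1.34 in ICM, and Zfp281, a partner of TET1, 15.8 ± 4.04 in epiblast and 3.83 ± 0.505 in ICM, the 2 genes of the list that rose. Prdm14, a repressor of Dnmt3b in naive pluripotent cells, averaged 1.37 ± 0.677 in diapaused ICM, 0.0354 ± 0.00697 in epiblast and 2.0 ± 1.21 in ICM.

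**Figure D5:**
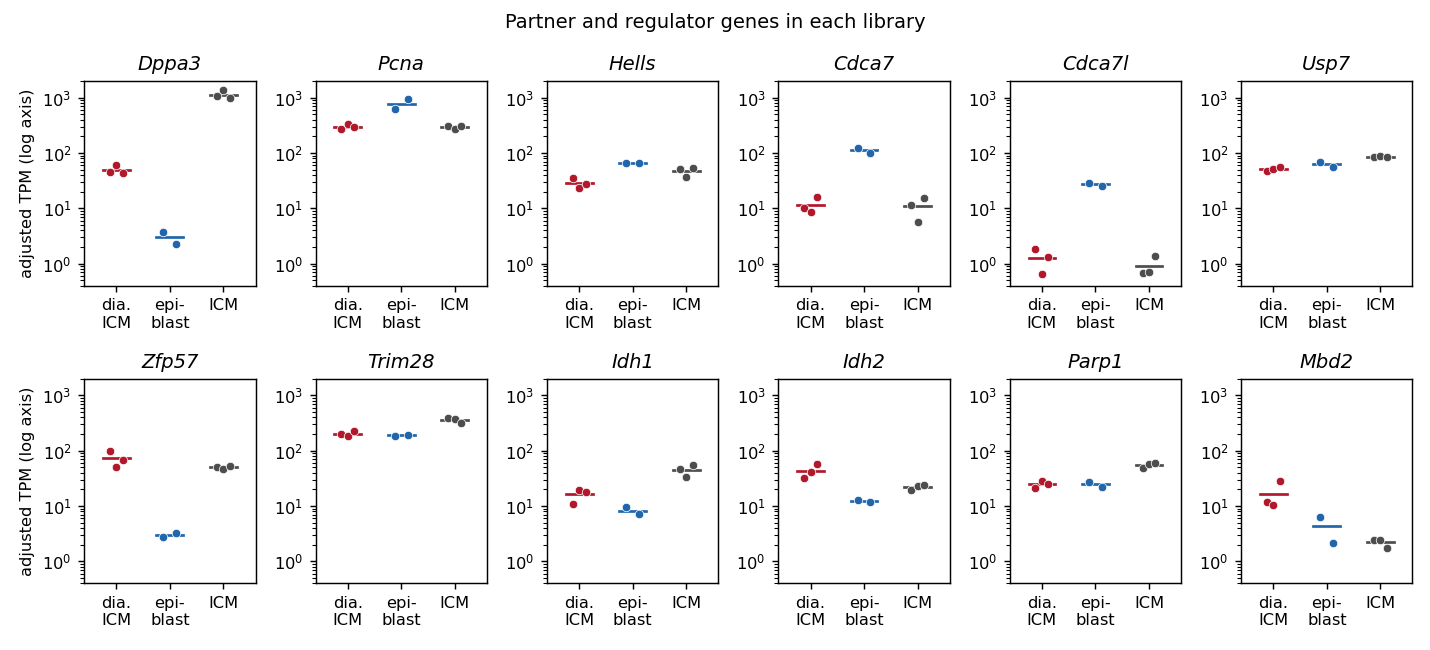
Adjusted TPM (log axis) of 12 partner and regulator genes, with a point for each library and a bar at the group mean, for diapaused ICM, epiblast and ICM. Dppa3 is at 987 or more in ICM and at 59.6 or less elsewhere, and Cdca7l is between 25.7 and 28.7 in epiblast and under 2 elsewhere.

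Of 10 tested regulators and cofactors of the TET enzymes, 1 rose and 2 fell in diapaused ICM against ICM (median log2 difference 0.02), beside 7.52% and 5.81% of all genes, and 0 passed without ICM replicate 1 or ICM replicate 3. Without diapaused ICM replicate 2 or replicate 3, 0 rose and 1 fell, and without ICM replicate 2 or either epiblast library 0 rose and 2 fell. Between epiblast and ICM 3 rose and 3 fell (-0.54), beside 16.7% and 13.3%. There 0 rose without epiblast replicate 1, and 1 rose without epiblast replicate 2, ICM replicate 1 or ICM replicate 2. In diapaused ICM against epiblast 4 rose and 3 fell (0.83), beside 16.0% and 18.6%. There 2 rose and 0 fell without epiblast replicate 1, and 2 rose and 2 fell without epiblast replicate 2. Idh1 and Idh2 make 2-oxoglutarate, the TET co-substrate, in the cytosol and in mitochondria. Idh1 averaged 16.2 ± 4.80 adjusted TPM in diapaused ICM, 8.30 ± 1.66 in epiblast and 45.2 ± 11.5 in ICM, and fell in diapaused ICM (-1.44, adjusted p = 0.014) and in epiblast (-2.29, adjusted p = 0.00142) against ICM. Idh2 averaged 43.7 ± 13.7 in diapaused ICM, 12.4 ± 0.728 in epiblast and 22.2 ± 2.12 in ICM and rose in diapaused ICM against ICM (0.91, adjusted p = 0.0451). That did not pass in 7 of the 8 fits with 1 library left out, nor under either rescaling (adjusted p = 0.14 and 0.24). Idh1 lost its call in diapaused ICM without ICM replicate 1 (0.051) or ICM replicate 3 (0.050). Nr5a2, listed with the TET regulators, averaged 6.83 ± 1.75 in diapaused ICM, 0.0870 ± 0.0266 in epiblast and 15.4 ± 3.92 in ICM, and its log2 difference in epiblast against ICM was -3.89 (adjusted p = 3.64e-05).

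Of 11 excision repair genes tested, 0 rose and 2 fell in diapaused ICM against ICM (median log2 difference 0.18), beside 7.52% and 5.81% of all genes. Between epiblast and ICM 0 rose and 1 fell (-0.33), beside 16.7% and 13.3%. In diapaused ICM against epiblast 0 rose and 2 fell (0.03), beside 16.0% and 18.6%. The counts that fell were near the shares of all genes in the last 2 comparisons and above the share in the first. The fall between epiblast and ICM became 2 without ICM replicate 1 and 0 without epiblast replicate 2. In diapaused ICM against epiblast 0 fell without diapaused ICM replicate 1 or epiblast replicate 1, and 1 fell without diapaused ICM replicate 2, diapaused ICM replicate 3 or epiblast replicate 2. Parp1, the sensor of strand breaks, averaged 24.8 ± 3.49 adjusted TPM in diapaused ICM, 24.6 ± 3.12 in epiblast and 54.6 ± 5.72 in ICM, and fell in both against ICM (-1.11, adjusted p = 0.00943, and -1.12, adjusted p = 0.00837). Without epiblast replicate 2 the second did not pass (adjusted p = 0.074). Ung, the uracil glycosylase, averaged 105 ± 7.19 in diapaused ICM and 216 ± 26.3 in ICM (-1.02, adjusted p = 0.0133). Mbd4, a glycosylase of similar substrates to TDG, passed in no comparison, with diapaused ICM at 1.67, 3.76 and 0.539, epiblast at 2.65 and 0.962 and ICM at 1.28, 1.46 and 1.38.

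Mbd2, a reader of methylated CpGs that recruits the NuRD complex, stood at 11.8, 10.3 and 28.1 adjusted TPM in diapaused ICM, 6.45 and 2.18 in epiblast, and 2.48, 2.48 and 1.72 in ICM. It rose in diapaused ICM against ICM (2.33 ± 0.42, adjusted p = 0.00722). Diapaused ICM replicate 3, the highest for Mbd2, was also the highest for the trophectoderm keratin Krt18. Krt18 stood at 121 adjusted TPM there and at most 30.98 in the other libraries. The 12 listed trophectoderm markers summed to 44.5 to 180 in diapaused ICM, 58.4 to 66.9 in epiblast and 34.5 to 55.1 in ICM. Of 8 tested, 1 (Gata3) rose and 0 fell in diapaused ICM against ICM (median log2 difference 0.06), beside 7.52% and 5.81% of all genes. The part of trophectoderm cells in the level of Mbd2 was not tested. Blood and immune markers were higher in diapaused ICM, where the list summed to 47.3 to 134 adjusted TPM. It summed to 2.33 to 4.07 in epiblast and 4.99 to 10.05 in ICM. The sums came almost wholly from Cd68 and Laptm5. Ptprc stayed at 0.399 or less, and the part of such cells in these levels was not tested.

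By the Pearson correlation over the 8 libraries on log2(value + 1), among 4786 genes with a group mean of at least 10, the genes most like each of the 9 members called in at least 1 comparison were as follows. Gabarapl2 (r = 0.991), Gstp2 (0.990) and D5Ertd577e (0.988) came closest to Uhrf1, and Myo5a (0.981), Ttc3 (0.979) and Cd81 (0.977) to Uhrf2. Upp1 (0.998), Rbpsuh-rs3 (0.997) and Arl14epl (0.995) came closest to Tet2, and Fabp3-ps1 (0.998), Cd38 (0.996) and Slc7a2 (0.993) to Dnmt3l. Bnip3 (0.994) led for Dnmt3a, Prdx2 (0.990) for Dnmt3b, Tacc3 (0.989) for Dnmt1, Mrps12 (0.986) for Tet1 and Mis12 (0.956) for Tdg. With 8 libraries in 3 groups, such values mostly describe the group means that the genes share.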

How the data were processed

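RNA was sequenced from 3 diapaused ICM, 2 epiblast and 3 ICM libraries. The authors deposited a signal per gene, called adjusted TPM per the file headers. Bowtie 0.12.5, DESeq (version not given) and mm9 are named, with no role, per the submitters' processing notes. The sources used do not give the adjustment, the annotation or whether strand was used, and depth is unknown. The unit differs from the TPM the tests assumed, and the planned test was kept. Genes at 1 or more in at least 2 libraries were kept, 17698 of 38924. limma 3.58.1 in R 4.3.3 fitted log2(value + 1) over all 8 libraries, with a trend on mean level (residual df 5, prior df 3.97), two-sided moderated tests and Benjamini-Hochberg adjustment over all genes tested, and was tested on simulated data. Alternatives changed the pseudocount, filter, scaling, block, prior and minimum fold, and left out each library. Adding genes that share sequence with a member on the same strand was chosen after seeing the data. These shared between 3.155% and 37.1% of that member's 31-base words. No libraries were identical.

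The members and lists were chosen with earlier results of these data known. Named were all members, up to 4 called genes of smallest adjusted p per list and comparison, and Dppa3, Hells, Pcna, Mbd4, Zfp57 and Prdm14, with the 3 genes most correlated with each called member; not all of these are printed. Genes named outside this rule were chosen after their values were seen. Genes that share sequence with a member were found from GENCODE M21 transcripts, and promoters were taken from RefSeq on GRCm38.p6.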

Additional observations from a re-analysis of the deposited data

How the results depend on the processing

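Among values under the other settings, 348 of 366 kept their direction and side of the threshold, and 219 of 240 did so with 1 library left out. The counts of genes called moved most. In diapaused ICM against ICM they were 1278 with no filter, 640 against a minimum fold of 1.5 and 1404 to 2148 with 1 library left out. In epiblast against ICM they were 1845 at that minimum fold and 1788 to 5257 with 1 library left out, and in diapaused ICM against epiblast 2243 and 2539 to 6351. Both lowest counts came without epiblast replicate 1. A fit with 1 epiblast library assumes that it varies like the other groups.

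Values that changed sign had not passed the test. The log2 difference of Dnmt3a in diapaused ICM against ICM was 0.02 with quantile normalization and -0.33 to 0.18 with 1 library left out. With 1 library left out, Uhrf1 in diapaused ICM against epiblast ran between -0.08 and 0.44 and Tet3 between -0.51 and 0.00. The log2 ratio of Uhrf2 to Uhrf1 there ran between -0.02 and 0.69, and the log2 share of Tet1 in diapaused ICM against ICM between -0.02 and 0.06. The cause was not tested.

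With no filter, the calls of Dnmt3b (adjusted p = 0.14) and Tet1 (0.060) in diapaused ICM against ICM, and of Dnmt1 (0.066) and Tdg (0.074) in epiblast against ICM, were lost. At a common total, Dnmt1 also lost its call (0.070). Uhrf1, Uhrf2 and Dnmt3l in diapaused ICM against ICM kept their calls in all 8 fits with 1 library left out.

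The labels do not say whether the replicate numbers pair the samples. The deviations of same-numbered diapaused ICM and ICM libraries correlated at 0.0175, 0.103 and 0.131. Those of differently numbered ones ran between -0.148 and 0.0330. With 3 libraries in each group, these values cannot decide whether the samples were paired. With the replicate block, 2004, 4475 and 5314 genes were called in the 3 comparisons, and Dnmt3b in diapaused ICM against ICM (adjusted p = 0.054) and Tdg in epiblast against ICM (0.066) were lost; no other call of a member changed.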

Other observations

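Germline genes whose promoters are methylated in somatic cells were mostly low, and 7 of 18 could be tested. Of these 7, 0 rose and 2 fell in diapaused ICM against ICM (median log2 difference 0.43), beside 7.52% and 5.81% of all genes. In epiblast against ICM 1 rose and 1 fell (-0.05), beside 16.7% and 13.3%. In diapaused ICM against epiblast 1 rose and 0 fell (0.58), beside 16.0% and 18.6%. Tdrd1 was the gene that rose in epiblast against ICM, a call lost in 3 of 8 fits with 1 library left out. Stk31 averaged 1.98 ± 0.552 adjusted TPM in diapaused ICM, 0.147 ± 0.0478 in epiblast and 7.76 ± 2.46 in ICM. It fell in diapaused ICM against ICM (-1.54, adjusted p = 0.00478) and in epiblast against ICM (-2.90, adjusted p = 0.000168). Tex19.1 averaged 132 ± 55.6 in diapaused ICM, 271 ± 41.2 in epiblast and 355 ± 126 in ICM, and its fall in diapaused ICM against ICM (adjusted p = 0.0407) was lost in 6 of 8 fits with 1 library left out. Of 4 deaminases only Apobec3 was tested, and it was lower in epiblast than in ICM (-1.15, adjusted p = 0.0335), a call lost in 4 of 8 such fits.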
